A study of Mus musculus with 9 samples.

Results

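Chemokine ligands are small secreted proteins that direct the movement of white blood cells, and the mouse genome names them by the spacing of their first cysteines as CC (Ccl), CXC (Cxcl) and CX3C (Cx3cl) genes. All protein-coding rows of the gene table whose symbol begins with Ccl, Cxcl or Cx3cl followed by a digit were taken, which gave 43 rows of 54532 in all and of 22046 that code for protein. They carried 37 symbols, because several Ccl19, Ccl21 and Ccl27 copies are listed more than once, and 7 of the 43 rows lie on unplaced scaffolds. By subfamily there were 30 CC rows, 12 CXC rows and 1 CX3C row. A further 3 rows matched the name pattern without being protein coding (Cxcl11, Ccl19-ps1 and Ccl19-ps3), and none of them exceeded 3 counts in a library.

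The libraries come from 3T3-L1, a mouse fibroblast line that becomes fat-storing cells when given adipogenic hormones, and each of 3 groups held 3 libraries of poly(A)-enriched RNA. Undifferentiated cells were kept confluent for 3 days in high-glucose DMEM with 10% bovine calf serum. Differentiated cells were then given insulin (10 μg/mL), rosiglitazone (1 μM), IBMX (0.5 mM) and dexamethasone (1 μM) in medium with lysine and 10% fetal bovine serum. Lysfree cells received that same mixture with the same serum in medium to which no lysine was added. The 2 hormone-treated groups therefore share every agent and differ in lysine. Both differ from Undifferentiated cells in the hormones, the base medium and its serum, and Lysfree cells in lysine as well. In comparisons with Undifferentiated these cannot be told apart. The labels do not say that the libraries are separate cultures, so the p-values below rest on a spread between libraries that may be technical. That spread was shared in part between genes, and in Differentiated vs. Undifferentiated fully so. The time of RNA harvest is not given in the labels. In bulk RNA, fewer cells of one type and less RNA per cell cannot be told apart.

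Total counts ran from 15880144 to 21806693 per library (median 17784064). Lysfree replicate 1 stood apart from the other Lysfree libraries, with a chi-square per degree of freedom of 47.5 and 48.9 against 2.85 between Lysfree replicates 2 and 3. Values without it are given for chemokine ligands where they matter. Markers and related genes were fitted with all libraries only, so their dependence on Lysfree replicate 1 was not tested. The labels name the cells fibroblasts. The summed level of 7 fibroblast markers was 4605 to 4996 FPKM in Undifferentiated, 953 to 969 in Differentiated and 1355 to 1390 in Lysfree, while that of 6 adipocyte markers was 280 to 354, 6681 to 7022 and 276 to 391. These sums hide single markers, and Col1a1, Col1a2 and Col3a1 held most of the fibroblast sum. At an adjusted p below 0.05 and at least 2-fold, 1 adipocyte marker was higher in Lysfree than in Undifferentiated and 2 were lower. Cd36 averaged 16.6 FPKM in Undifferentiated and 72.7 in Lysfree, and the lower were Adipoq (57.8 and 4.18) and Cidec. At the same limits 5 of the 7 fibroblast markers were lower, but Thy1 averaged 70.4 and 89.1 FPKM. Over all 23994 genes tested in that comparison, 5.52% were called higher and 8.76% lower. Among 10 macrophage markers, Ptprc, Adgre1 and Itgam did not exceed 3 counts in a library of any group. The summed level of all 10 was 19.9 to 23.6, 9.31 to 10.7 and 12.6 to 14.4 FPKM, most of it from Lyz2 and Cd14 in Undifferentiated. Cd68 averaged 1.65 FPKM in Undifferentiated, 4.12 in Differentiated and 4.40 in Lysfree. Lyz2 averaged 13.3, 0.699 and 3.49, and Cd14 5.54, 4.93 and 5.19. Aif1 and Csf1r exceeded 3 counts in every Undifferentiated library, Mrc1 in every Differentiated and Fcgr1 in every Lysfree library. All 7 lymphocyte markers stayed at 3 counts or fewer in every library. The summed level of 3 neutrophil markers peaked at 1.93 FPKM, that of 4 endothelial markers at 0.272 and that of 4 epithelial markers at 1.72.

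Chemokines act through G protein-coupled receptors on the recruited cell, and they form gradients by binding to sugar chains of the extracellular matrix. Fibroblasts and preadipocytes make several of them, including the monocyte attractants Ccl2 and Ccl7, the neutrophil attractants Cxcl1 and Cxcl5 and the stromal factor Cxcl12. Many chemokine genes are switched on by the transcription factor NF-kB after inflammatory cytokines, and Cxcl9 and Cxcl10 also by interferons. The genes lie in clusters, in which neighbours arose by duplication.

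The upstream windows printed here were chosen because they contrast neighbours that share a motif but not a level, the member with the most searched motifs, and the most abundant member. Each window holds the 250 bases before the RefSeq start site of GRCm38.p6, which has the same coordinates as the mm10 build of the count table, and runs 5′ to 3′ on the gene's strand. Capitals mark matches on either strand to the NF-kB consensus, to an interferon response element core (GAAA and GAAA with any 2 bases between) and to TGANTCA (an AP-1 core), and the 3 motifs do not overlap each other in these windows.

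The first trio are the neutrophil attractants Cxcl1 (chr5:90890995-90891244, plus strand), Cxcl2 (chr5:90903649-90903898, plus strand) and Cxcl3 (chr5:90785851-90786100, plus strand), shown because their windows hold the same capital run.
Cxcl1: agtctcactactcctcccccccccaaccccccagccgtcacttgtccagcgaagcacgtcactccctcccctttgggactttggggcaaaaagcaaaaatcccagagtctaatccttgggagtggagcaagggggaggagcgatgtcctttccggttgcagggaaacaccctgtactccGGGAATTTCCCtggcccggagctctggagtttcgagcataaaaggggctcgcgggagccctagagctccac
Cxcl2: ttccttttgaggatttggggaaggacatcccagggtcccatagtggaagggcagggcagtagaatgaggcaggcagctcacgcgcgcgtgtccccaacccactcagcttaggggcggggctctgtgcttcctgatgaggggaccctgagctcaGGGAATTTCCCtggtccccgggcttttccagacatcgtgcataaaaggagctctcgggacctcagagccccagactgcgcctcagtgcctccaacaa
Cxcl3: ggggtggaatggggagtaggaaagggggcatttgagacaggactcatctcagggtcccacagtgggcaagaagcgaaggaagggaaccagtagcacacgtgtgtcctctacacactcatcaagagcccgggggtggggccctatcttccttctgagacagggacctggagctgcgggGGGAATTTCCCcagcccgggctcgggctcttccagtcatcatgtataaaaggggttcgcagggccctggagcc
Next are the interferon-inducible Cxcl10 (chr5:92348890-92349139, minus strand), shown because all 3 motifs occur in it, and the stromal factor Cxcl12 (chr6:117168285-117168534, plus strand), in which none occurs.
Cxcl10: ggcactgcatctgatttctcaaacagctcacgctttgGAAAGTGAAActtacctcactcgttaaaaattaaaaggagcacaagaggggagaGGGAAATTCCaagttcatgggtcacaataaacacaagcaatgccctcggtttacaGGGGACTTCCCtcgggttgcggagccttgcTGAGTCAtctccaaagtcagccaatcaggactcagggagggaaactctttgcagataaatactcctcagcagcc
Cxcl12: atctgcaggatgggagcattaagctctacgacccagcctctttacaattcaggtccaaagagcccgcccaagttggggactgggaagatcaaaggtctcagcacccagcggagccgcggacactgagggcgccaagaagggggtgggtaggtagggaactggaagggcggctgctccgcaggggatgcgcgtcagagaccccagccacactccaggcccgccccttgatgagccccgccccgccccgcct

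RefSeq gave a window whose start lay within 500 bases of the deposited gene start for 24 of the 36 members on chromosomes. NF-kB consensus matches were present in 6 of these 24 (25%), namely Cxcl1, Cxcl2, Cxcl3, Cxcl10, Ccl9 and Ccl20, against 7.25% of 32851 windows of the same length. The interferon response element core was in 3 of the 24 (Cxcl10, Ccl19 and Cxcl14, 12.5%) against 2.98% of all windows, and TGANTCA in 3 (Cxcl10, Ccl9 and Ccl27b, 12.5%) against 6.75%. Counted from the start site, overlapping NF-kB matches began at -71 and -70 in Cxcl1, at -97 and -96 in Cxcl2 and at -73 and -72 in Cxcl3. In Cxcl10 they began at -159, -104 and -103, with the interferon response element core at -213 and TGANTCA at -74. Of the 6 members with an NF-kB match, 3 exceeded 3 counts in some library (Cxcl1, Cxcl10 and Ccl9) and 3 did not (Cxcl2, Cxcl3 and Ccl20). A match describes the letters only. No window was used here for Ccl1, Ccl2, Ccl4, Ccl5, Ccl7, Ccl11, Ccl21b, Ccl24, Ccl26, Cxcl5, Cxcl16 or Cxcl17.

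A count of 3 was taken as the floor of detection, which covers counting error only. Of the 43 rows, 22 stayed at or under it in every library: 18 of 30 CC rows and 4 of 12 CXC rows. No read at all was counted for 15 rows, 9 on chromosomes and 6 on scaffolds. The silent chromosomal genes were Ccl3 and Ccl4, attractants of monocytes and T cells, the eotaxins Ccl24 and Ccl26, the monocyte attractant Ccl12, the lymphoid-tissue ligands Ccl19, Ccl21a and Ccl21b, and Cxcl14. The silent scaffold rows were copies of Ccl19, Ccl21a, Ccl21b, Ccl21c (listed on each of 2 scaffolds) and Ccl27a. Because the Ccl19, Ccl21 and Ccl27 copies are nearly identical, reads may have been withheld from or split among them, and their values are uncertain.

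The other 7 rows at the floor had 1 to 3 counts in some library. Cxcl3 was counted 2, 1 and 3 times in the Differentiated libraries and never elsewhere, and Cxcl2 likewise 1, 2 and 1 times. Both are neutrophil attractants that act through Cxcr2, and their handful of reads came from Differentiated cells alone. Ccl20, the ligand of Ccr6, had 3, 0 and 1 counts in Undifferentiated and none elsewhere. Ccl22, a ligand of Ccr4, had a single read in Undifferentiated replicate 3 and 2 reads in each of Differentiated replicates 1 and 3. Ccl1, Cxcl17 and the second scaffold copy of Ccl27a reached 3, 2 and 2 counts at most. No fold is given for a row at the floor in both groups.

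The 21 rows above the floor in at least 1 library comprised 12 CC genes, 8 CXC genes and Cx3cl1. Within the groups, 22 of the 43 rows were at the floor in all Undifferentiated libraries, 25 in all Differentiated and 27 in all Lysfree libraries. A mean of at least 1 FPKM (fragments per kilobase of transcript, scaled to the library's depth, a level that can be compared between genes) was reached by 11 members in Undifferentiated, 9 in Differentiated and 9 in Lysfree cells, and by 13 in at least 1 group.

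**Figure D1:**
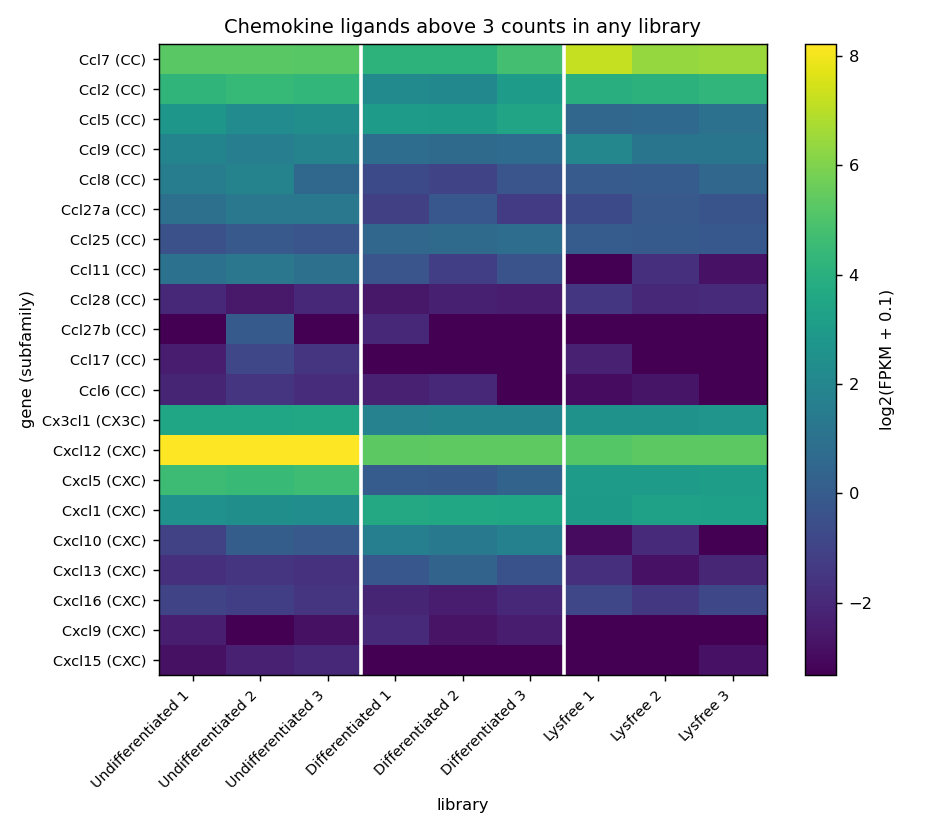
Level of the 21 chemokine ligands above 3 counts in any library, as log2(FPKM + 0.1) by colour, with genes as rows (subfamily in brackets) and the 9 libraries as columns, white lines between groups. Cxcl12 and Ccl7 are the brightest rows, Cxcl5 is dark in Differentiated only, and Cxcl10 and Ccl11 are darkest in Lysfree.

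The summed level of all 43 rows was 406, 417 and 411 FPKM in the Undifferentiated libraries, 96.5, 94.8 and 112 in Differentiated and 230, 173 and 181 in Lysfree. Every Undifferentiated library lay above every Lysfree library, and these above every Differentiated library. Cxcl12 alone made up 71.3% to 71.8% of that sum in Undifferentiated, 36.6% to 42.8% in Differentiated and 15.8% to 23.2% in Lysfree. Without Cxcl12 the sum was 116 to 119 FPKM in Undifferentiated, 54.2 to 71.1 in Differentiated and 133 to 194 in Lysfree, so that the Lysfree libraries became the highest. Of this remainder, Ccl7 held 32.5% to 32.6% in Undifferentiated, 30.7% to 38.5% in Differentiated and 63.9% to 76.2% in Lysfree. The sums were not tested.

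**Figure D2:**
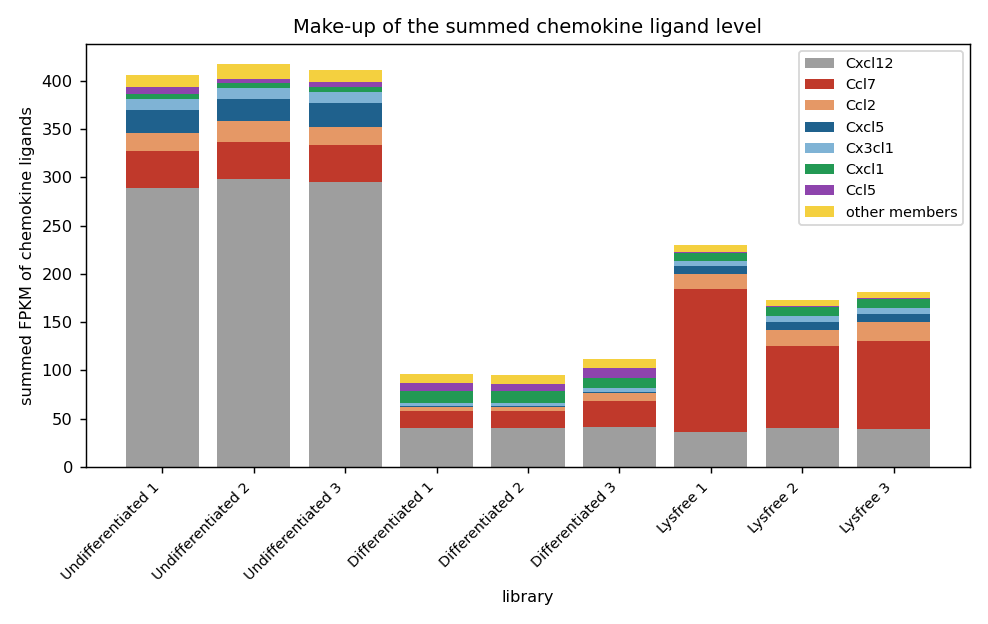
Summed FPKM of all chemokine ligand rows in each of the 9 libraries, stacked by gene. The grey Cxcl12 block is 289 to 298 FPKM in Undifferentiated and 36.4 to 41.0 in the hormone-treated libraries, and the red Ccl7 block is the tallest in Lysfree.

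In Undifferentiated cells the levels ran from Cxcl12 (mean 294 FPKM) through Ccl7 (38.1), Cxcl5 (23.6), Ccl2 (19.9) and Cx3cl1 (11.4) to Ccl5 (5.55) and Cxcl1 (5.28), and of these neighbours only Ccl5 and Cxcl1 had overlapping libraries. In Differentiated cells the order was Cxcl12 (40.6), Ccl7 (20.7), Cxcl1 (11.6), Ccl5 (8.88), Ccl2 (5.67), Cx3cl1 (3.56) and Cxcl10 (2.92), with overlap between Ccl5 and Ccl2 alone. Ccl7 took the first place in Lysfree cells (mean 108 FPKM), before Cxcl12 (38.7), Ccl2 (17.2), Cxcl1 (8.78), Cxcl5 (8.33), Cx3cl1 (6.04) and Ccl9 (2.72), and here only Cxcl1 and Cxcl5 overlapped.

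The members were read against all genes in 3 pairwise comparisons, in which a gene was called when its adjusted p was below 0.05 and its change at least 2-fold. From Undifferentiated to Differentiated, 28 member rows had a count to test, and 4 rose (Cxcl1, Cxcl10, Cxcl13 and Ccl25) while 10 fell (Cxcl12, Cxcl5, Cx3cl1, Ccl2, Ccl9, Ccl8, Ccl11, Ccl27a, Cxcl15 and Cxcl16). Among all 24402 genes tested, 10.4% were called higher and 11.4% lower. From Differentiated to Lysfree, 4 of 27 rows rose (Ccl7, Ccl2, Cxcl5 and Cxcl16) and 5 fell (Ccl5, Cxcl10, Cxcl13, Ccl11 and Cxcl9), against 8.14% higher and 10.5% lower of 24130 genes. From Undifferentiated to Lysfree, only Ccl7 of 25 rows rose and 7 fell (Cxcl12, Cxcl5, Ccl5, Cxcl10, Ccl11, Ccl8 and Ccl27a), against 5.52% higher and 8.76% lower of 23994 genes. At an adjusted p below 0.05 without regard to fold, 16, 13 and 10 member rows passed in the order given, against 46.1%, 38.5% and 35.1% of all genes. Rows enter a comparison when they have a read in it, so these counts describe expressed members, not all 43.

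The median fitted log2 fold change of the tested members, rows at the floor in both groups included, was -1.08 for Differentiated vs. Undifferentiated, -1.46 for Lysfree vs. Undifferentiated and -0.34 for Lysfree vs. Differentiated, beside 0.02, -0.02 and -0.06 over all genes tested. The 7, 4 and 9 rows at the floor in both groups were then left out. Those at the floor in 1 group were set at their bound (3 counts per library), or at no change where the bound gave no fold. The medians became -0.91 (21 rows), -0.35 (21 rows) and 0.27 (18 rows). Here -0.35 was the bound of Cxcl15, and 0.27 lay midway between Ccl27a (0.55) and Ccl6, set at no change. These medians thus rest in part on rows near the floor, and the sign for Lysfree vs. Differentiated depended on rows near zero. FPKM values of the groups did not overlap for 19 of 28, 12 of 25 and 18 of 27 member rows in these comparisons, where 50.9%, 43.5% and 46.6% of all genes tested did not. The 19 and the 18 include Cxcl2 and Cxcl3, at the floor in both groups. The 18 also include Cxcl12, and the FPKM scaling described for it below applies to every gene of that comparison.

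**Figure D3:**
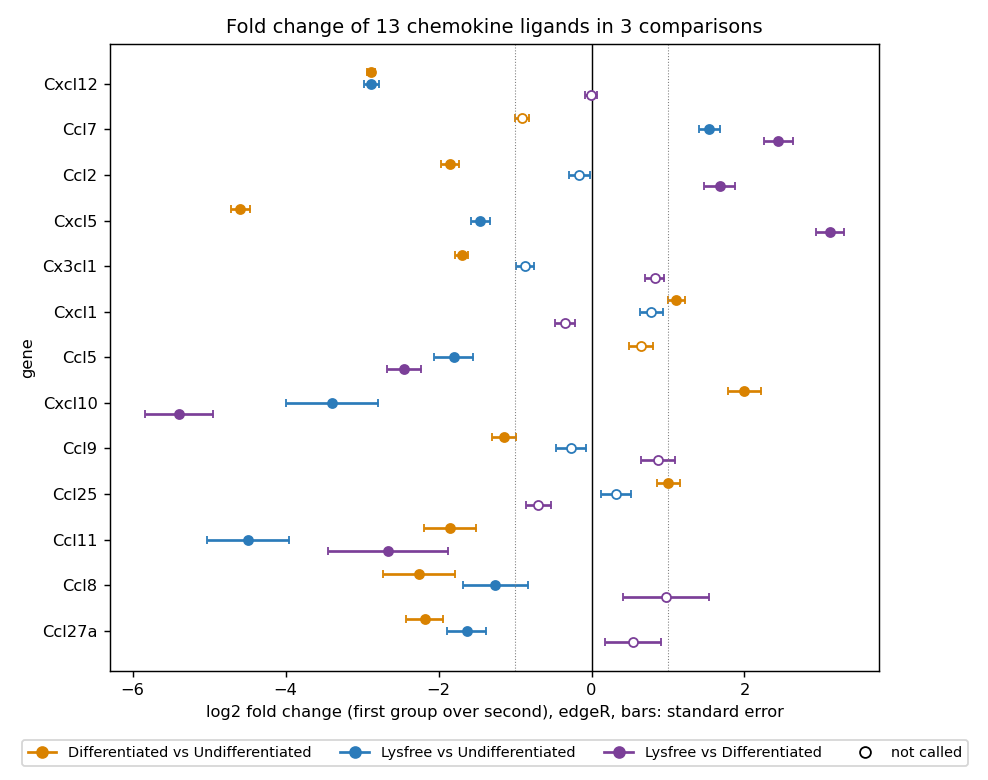
Log2 fold change from edgeR with its standard error (bars) for the 13 chemokine ligands with a mean of at least 1 FPKM in some group, in 3 comparisons of 6 libraries each (colours). Filled points were called and open points were not, dotted lines mark 2-fold, and the 3 comparisons share libraries. Cxcl12 is at -2.88 against Undifferentiated in both hormone-treated groups, and Cxcl5, Ccl7 and Ccl2 lie right of zero in Lysfree vs. Differentiated while Cxcl10 lies farthest left.

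The stromal chemokine Cxcl12 (ENSMUSG00000061353, chr6:117168535-117181367, plus strand), which binds Cxcr4 and the scavenger Ackr3, was the most abundant member of Undifferentiated cells. It measured 289, 298 and 295 FPKM in Undifferentiated, 40.2, 40.6 and 41.0 in Differentiated and 36.4, 40.0 and 39.7 in Lysfree libraries. Both hormone-treated groups were thus far below the Undifferentiated group, and close to each other. The log2 fold change was -2.88 (SE 0.05) in Differentiated vs. Undifferentiated, whose adjusted p came out as zero in double precision, and -2.88 (SE 0.09, adjusted p = 9.7e-22) in Lysfree vs. Undifferentiated. Between Lysfree and Differentiated it was -0.0053 (SE 0.08, adjusted p = 0.98). The FPKM of these 2 groups nevertheless did not overlap. The ratio of deposited FPKM to a value recomputed from the counts, gene length and table total was 0.932 to 0.953 in Lysfree and 1.03 to 1.04 in Differentiated libraries, and the raw counts, 5088 to 6183 in Differentiated and 5223 to 6297 in Lysfree, did overlap. The sign of this small difference turned to 0.069 with library sizes alone and to 0.019 without Lysfree replicate 1.

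The monocyte attractants Ccl2 (ENSMUSG00000035385, chr11:82035571-82037453) and Ccl7 (ENSMUSG00000035373, chr11:82045712-82047525), both on the plus strand, bind Ccr2 and lie 8.26 kb apart. Ccl7 measured 37.9, 38.7 and 37.7 FPKM in Undifferentiated, 17.3, 17.5 and 27.4 in Differentiated and 148, 85.1 and 90.4 in Lysfree libraries. The 3 groups did not overlap, and Lysfree replicate 1 was the highest library by a wide margin. Against Differentiated, Ccl7 rose in Lysfree by 2.44 on the log2 scale (SE 0.19, adjusted p = 7.6e-10), and against Undifferentiated by 1.54 (SE 0.14, adjusted p = 6.9e-11). Without Lysfree replicate 1 these values were 2.13 and 1.22, and both calls held. In Differentiated vs. Undifferentiated the log2 fold change was -0.91 (SE 0.09, adjusted p = 2.1e-21), short of 2-fold, and -1.16 without Differentiated replicate 3.

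Ccl2 measured 18.8, 21.3 and 19.6 FPKM in Undifferentiated, 4.54, 4.15 and 8.32 in Differentiated and 15.4, 16.8 and 19.5 in Lysfree libraries. The Differentiated libraries were below all others, whereas the Lysfree and Undifferentiated libraries overlapped. Ccl2 fell from Undifferentiated to Differentiated (log2 fold change -1.85, SE 0.12, adjusted p = 9.3e-54) and rose from Differentiated to Lysfree by 1.67 on the log2 scale (SE 0.20, adjusted p = 6.1e-07). Lysfree vs. Undifferentiated gave -0.16 (SE 0.14, adjusted p = 0.41). Differentiated replicate 3 was the highest of its group for both Ccl2 and Ccl7. A gene on the opposite strand over Ccl2, Gm17268, shares 1883 bases with it and had no reads in any library. Without knowledge of the strand setting, this does not show that the overlap left the Ccl2 counts unchanged.

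Farther along the same cluster lie the eosinophil attractant Ccl11, 10.3 kb beyond Ccl7, the silent Ccl12, and Ccl8, a further monocyte attractant. Ccl11 measured 1.95, 2.32 and 1.85 FPKM in Undifferentiated, 0.717, 0.347 and 0.687 in Differentiated and 0, 0.194 and 0.0476 in Lysfree libraries (4 counts at most in Lysfree). Unlike Ccl2 and Ccl7, it stepped down in order from Undifferentiated to Differentiated to Lysfree, with no overlap. The log2 fold changes were -1.85 (SE 0.34, adjusted p = 2.4e-07) for Differentiated vs. Undifferentiated, -4.49 (SE 0.54, adjusted p = 2.1e-08) for Lysfree vs. Undifferentiated and -2.66 (SE 0.79, adjusted p = 0.0096) for Lysfree vs. Differentiated. With so few Lysfree reads their size rested on single libraries, and without Lysfree replicate 2 the latter values were -6.01 and -4.16.

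Ccl8 measured 2.85, 3.48 and 1.34 FPKM in Undifferentiated, 0.506, 0.420 and 0.727 in Differentiated and 0.891, 0.924 and 1.31 in Lysfree libraries, from 4 to 39 counts. Undifferentiated libraries were the highest, although replicate 3 came close to the top Lysfree library. It fell by 2.26 on the log2 scale from Undifferentiated to Differentiated (SE 0.47, adjusted p = 4.2e-06). Lysfree vs. Undifferentiated gave -1.26 (SE 0.42, adjusted p = 0.018), which was lost without Undifferentiated replicate 2 (-0.97, adjusted p = 0.13) and with DESeq2 (adjusted p = 0.052), and Lysfree vs. Differentiated gave 0.98 (SE 0.56, adjusted p = 0.20). At the far end of the cluster, Ccl1 was at the floor.

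**Figure D4:**
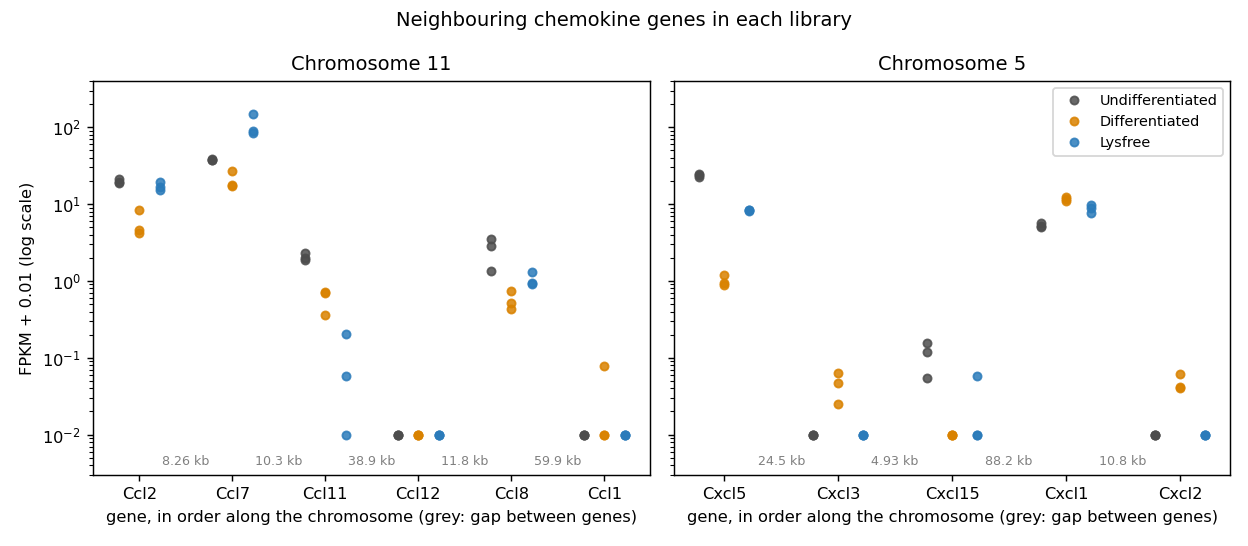
FPKM + 0.01 on a log axis for each library (points, coloured by group) of successive members in their order on chromosome 11 (left) and chromosome 5 (right). The gap between members in kilobases is in grey, and genes outside the name pattern that lie in a gap are not drawn. On the left, Ccl7 is highest in Lysfree while Ccl11 is lowest there. On the right, Cxcl5 is lowest and Cxcl1 highest in Differentiated, and Cxcl2 and Cxcl3 remain below 0.1 FPKM.

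The neutrophil attractants Cxcl5, Cxcl3, Cxcl15, Cxcl1 and Cxcl2 follow each other among the members on chromosome 5, with 10.8 kb between Cxcl1 and Cxcl2. Genes outside the name pattern, such as Pf4 and Ppbp, were not placed in this order. Cxcl5 (ENSMUSG00000029371, chr5:90759360-90761624, plus strand) measured 23.8, 22.4 and 24.7 FPKM in Undifferentiated, 0.937, 0.865 and 1.20 in Differentiated and 8.31, 8.22 and 8.46 in Lysfree libraries. Its 3 groups were tight and did not overlap, with Differentiated at the bottom and Lysfree in between. Cxcl5 fell by 4.59 on the log2 scale from Undifferentiated to Differentiated (SE 0.13, adjusted p = 2.9e-271), the steepest fall among members with at least 1 FPKM in that comparison. It rose by 3.12 from Differentiated to Lysfree (SE 0.18, adjusted p = 9.8e-12) and was still lower than in Undifferentiated (log2 fold change -1.46, SE 0.12, adjusted p = 1.5e-11).

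Cxcl1 (ENSMUSG00000029380, chr5:90891241-90893115, plus strand), whose upstream window is printed above, measured 5.61, 5.20 and 5.03 FPKM in Undifferentiated, 12.5, 11.6 and 10.9 in Differentiated and 7.77, 9.59 and 8.99 in Lysfree libraries. Its order was the reverse of that of Cxcl5, with the Differentiated libraries on top. The log2 fold change was 1.11 (SE 0.11, adjusted p = 2.2e-23) in Differentiated vs. Undifferentiated and 0.78 (SE 0.15, adjusted p = 8.6e-05), short of 2-fold, in Lysfree vs. Undifferentiated. Lysfree vs. Differentiated gave -0.34 (SE 0.13, adjusted p = 0.045), and the adjusted p rose to as much as 0.20 when a library was left out. Cxcl2 and Cxcl3, which carry the same capital run upstream, did not exceed 0.1 FPKM in a library. Cxcl15, a neutrophil attractant described in lung, had 2, 5 and 5 counts in Undifferentiated, none in Differentiated and 0, 0 and 2 in Lysfree libraries. Its fall to Differentiated was called (adjusted p = 0.016, at least 1.19-fold lower by the floor), but not without Undifferentiated replicate 3 or without any single Differentiated library.

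Cxcl9 and Cxcl10 are interferon-inducible ligands of Cxcr3. Cxcl10 (ENSMUSG00000034855, chr5:92346638-92348889, minus strand), which attracts activated T cells, measured 0.375, 0.951 and 0.832 FPKM in Undifferentiated, 3.04, 2.43 and 3.30 in Differentiated and 0.0253, 0.163 and 0 in Lysfree libraries. In counts these were 18, 47 and 30, then 106, 102 and 120, then 1, 7 and 0, and no library of one group reached another. Cxcl10 rose by 2.00 on the log2 scale from Undifferentiated to Differentiated (SE 0.21, adjusted p = 5.3e-20), and its log2 fold change in Lysfree was -5.39 against Differentiated (SE 0.44, adjusted p = 2.0e-09) and -3.40 against Undifferentiated (SE 0.60, adjusted p = 1.9e-05). All of these calls held when each library was left out in turn, but the size depended on the few Lysfree reads: without Lysfree replicate 2 these were -7.53 and -5.55. Art3, which overlaps it on the opposite strand, had 0 to 14 counts.

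Cxcl9, 18.6 kb from Cxcl10, had 6, 0 and 2 counts in Undifferentiated, 8, 3 and 4 in Differentiated and none in Lysfree libraries. It was called lower in Lysfree vs. Differentiated (adjusted p = 0.0084, at least 1.83-fold by the floor), which was lost without Differentiated replicate 1 (adjusted p = 0.060). Cxcl13, which draws B cells through Cxcr5, had 5, 6 and 4 counts in Undifferentiated, 14, 25 and 12 in Differentiated and 4, 1 and 3 in Lysfree libraries. It stayed under 1 FPKM on average, and its Differentiated libraries were the highest. The log2 fold change of Cxcl13 was 1.93 (SE 0.52, adjusted p = 0.00060) in Differentiated vs. Undifferentiated and -2.69 (SE 0.57, adjusted p = 0.00060) in Lysfree vs. Differentiated.

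Ccl5 (ENSMUSG00000035042, chr11:83525778-83530518, minus strand), an attractant of T cells and monocytes, lies away from the Ccl2 and Ccl7 genes and followed another pattern. It measured 6.89, 4.61 and 5.14 FPKM in Undifferentiated, 8.35, 7.83 and 10.4 in Differentiated and 1.30, 1.42 and 1.88 in Lysfree libraries. Lysfree was lowest and Differentiated highest, with no overlap. Ccl5 fell in Lysfree, with log2 fold changes of -2.46 (SE 0.22, adjusted p = 9.6e-09) against Differentiated and -1.80 (SE 0.26, adjusted p = 5.5e-07) against Undifferentiated. Differentiated vs. Undifferentiated gave 0.64 (SE 0.16, adjusted p = 9.9e-05), short of 2-fold.

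Its neighbour Ccl9, a ligand of Ccr1 that is 42.4 kb away, measured 3.61, 3.01 and 3.49 FPKM in Undifferentiated, 1.63, 1.50 and 1.53 in Differentiated and 3.91, 2.12 and 2.15 in Lysfree libraries. Differentiated libraries were lowest, and Lysfree replicate 1 stood above the other Lysfree libraries, as it did for Ccl7. Ccl9 fell by 1.14 on the log2 scale from Undifferentiated to Differentiated (SE 0.15, adjusted p = 3.2e-13). Lysfree vs. Differentiated gave 0.87 (SE 0.22, adjusted p = 0.0027), which was 0.51 without Lysfree replicate 1 and passed 2-fold without Lysfree replicate 2 (1.02) or 3 (1.01), and Lysfree vs. Undifferentiated gave -0.26 (SE 0.20, adjusted p = 0.34). Next to it Ccl6, a related ligand, had 9 counts at most and was not called in any comparison.

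Members that are anchored in the membrane and shed by proteases are Cx3cl1 and Cxcl16. Cx3cl1 (ENSMUSG00000031778, chr8:94772009-94782427, plus strand), the ligand of Cx3cr1, measured 11.1, 11.5 and 11.6 FPKM in Undifferentiated, 3.42, 3.63 and 3.62 in Differentiated and 5.88, 5.76 and 6.46 in Lysfree libraries. The groups did not overlap, and Lysfree lay between the others. It fell by 1.70 on the log2 scale from Undifferentiated to Differentiated (SE 0.09, adjusted p = 3.8e-77). Lysfree vs. Differentiated gave 0.83 (SE 0.13, adjusted p = 1.4e-05) and Lysfree vs. Undifferentiated -0.87 (SE 0.12, adjusted p = 3.3e-07), both short of 2-fold.

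Cxcl16, the ligand of Cxcr6 and a scavenger of oxidised lipoprotein, stayed under 0.5 FPKM. It had 27, 23 and 12 counts in Undifferentiated, 6, 5 and 7 in Differentiated and 24, 15 and 27 in Lysfree libraries, and the Differentiated libraries were the lowest. The log2 fold change was -1.53 (SE 0.48, adjusted p = 0.0032) in Differentiated vs. Undifferentiated and 1.76 (SE 0.44, adjusted p = 0.0027) in Lysfree vs. Differentiated. Neighbours of Cx3cl1 in the genome, Ccl22 and Ccl17, were at or near the floor: Ccl17, a ligand of Ccr4, had 1, 5 and 2 counts in Undifferentiated and a single read elsewhere.

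**Figure D5:**
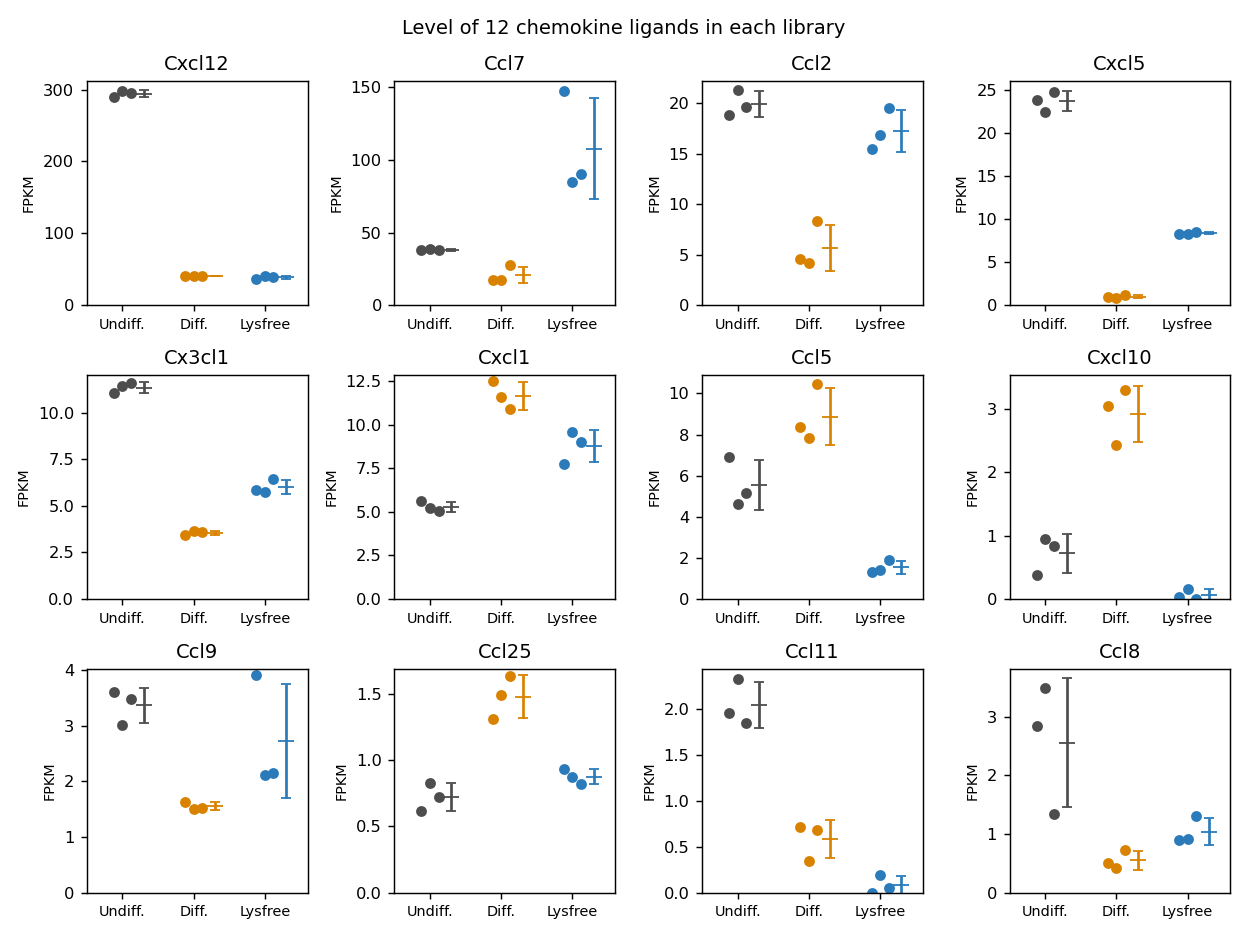
FPKM of 12 chemokine ligands in each library, 1 panel a gene with its own axis from 0, points for the 3 libraries of each group and bars for the mean and SD. Ccl7 is highest in Lysfree, Cxcl1, Ccl5 and Cxcl10 are highest in Differentiated, and Cxcl12, Cxcl5, Cx3cl1 and Ccl11 are highest in Undifferentiated.

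Ligands known from epithelia and thymus were low in all groups. Ccl25, the thymus and gut ligand of Ccr9, measured 0.618, 0.827 and 0.721 FPKM in Undifferentiated, 1.31, 1.49 and 1.63 in Differentiated and 0.932, 0.873 and 0.817 in Lysfree libraries. The Differentiated libraries were highest, with a log2 fold change of 1.01 (SE 0.15, adjusted p = 2.3e-11) that lay at the 2-fold limit and fell under it without Undifferentiated replicate 1, Differentiated replicate 2 or Differentiated replicate 3. Lysfree vs. Differentiated gave -0.69 (SE 0.16, adjusted p = 0.0013) and Lysfree vs. Undifferentiated 0.32 (SE 0.19, adjusted p = 0.23). Ccl25 shares 204 bases with Elavl1 on the opposite strand, which had 1398 to 2250 counts, and without knowledge of the strand setting reads there cannot be told apart.

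Ccl27a, the skin ligand of Ccr10, measured 1.84, 2.38 and 2.36 FPKM in Undifferentiated, 0.354, 0.768 and 0.313 in Differentiated and 0.503, 0.838 and 0.694 in Lysfree libraries. Undifferentiated was highest and the other groups overlapped. It fell against Undifferentiated in both, with log2 fold changes of -2.18 in Differentiated (SE 0.24, adjusted p = 8.2e-19) and -1.63 in Lysfree (SE 0.25, adjusted p = 2.3e-06), and Lysfree vs. Differentiated gave 0.55 (SE 0.36, adjusted p = 0.28), or 1.09 (adjusted p = 0.047) without Differentiated replicate 2. Il11ra1, which shares 8 bases with Ccl27a on the opposite strand, moved with it, at 3937 to 5730 counts in Undifferentiated, 800 to 1039 in Differentiated and 1138 to 1544 in Lysfree, and its part in the result was not tested. Ccl28, the mucosal ligand of the same receptor, had 5 to 22 counts and was not called (Lysfree vs. Differentiated 1.16, SE 0.46, adjusted p = 0.051, or 1.32 with adjusted p = 0.039 without Lysfree replicate 2). Ccl27b had 8 counts in Undifferentiated replicate 2 and a single read elsewhere.

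Receptors for these ligands were nearly silent. Of 19 chemokine receptor genes, 17 were at the floor in all Undifferentiated libraries, 17 in Differentiated and 16 in Lysfree, and none was called in any comparison. Cxcr4, Ccr2, Cxcr2, Cxcr3 and Cx3cr1, the receptors of the most abundant ligands and of Cxcl10, were all at the floor. Ccr10 was the highest of the list, at means of 0.645, 0.701 and 0.365 FPKM. The scavenger receptor Ackr3, which takes up Cxcl12, was the exception among 5 atypical receptors: it averaged 10.3 ± 0.958 FPKM in Undifferentiated, 1.91 ± 0.0568 in Differentiated and 3.85 ± 0.266 in Lysfree libraries (SD, n = 3). Its log2 fold change was -2.46 (SE 0.11, adjusted p = 2.7e-112) in Differentiated vs. Undifferentiated, -1.37 (SE 0.13, adjusted p = 3.3e-10) in Lysfree vs. Undifferentiated and 1.08 (SE 0.15, adjusted p = 5.0e-06) in Lysfree vs. Differentiated. Of 3 ligand genes under other symbols, Xcl1 was at the floor, while Pf4 and Ppbp were called lower in Differentiated vs. Undifferentiated and the 3 together did not exceed 1.93 FPKM.

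Among 5 proteases that trim or shed chemokines, Dpp4 was at the floor, and in Lysfree vs. Differentiated 2 of the 4 tested rose and 1 fell (median log2 fold change 0.63), against 8.14% of all genes called higher and 10.5% lower. Mmp2, which cleaves Cxcl12 and Ccl7, averaged 2009, 123 and 394 FPKM in Undifferentiated, Differentiated and Lysfree libraries and rose by 1.74 on the log2 scale in Lysfree vs. Differentiated (SE 0.08, adjusted p = 1.1e-13). Adam10, a sheddase of Cx3cl1 and Cxcl16, averaged 33.5, 21.4 and 54.6 FPKM (log2 fold change 1.42, SE 0.09, adjusted p = 3.4e-11), and Mmp9 averaged 9.63, 0.867 and 0.125 (log2 fold change -2.75, SE 0.42, adjusted p = 1.5e-05). Protein levels were not measured in these libraries.

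Of 18 NF-kB factors and inhibitors, 1 was called higher and 4 lower in Lysfree vs. Differentiated, with a median log2 fold change of 0.19, against 8.14% higher and 10.5% lower of all genes, and the count called higher was near that share. The higher was the inhibitor Nfkbie (2.41, SE 0.22, adjusted p = 9.5e-09), and among the lower were Tnfaip3 (-2.01, SE 0.13, adjusted p = 4.5e-11), Tnip1 (-1.64, SE 0.13, adjusted p = 1.2e-09) and Nfkbia (-1.05, SE 0.12, adjusted p = 1.8e-07), which restrain the pathway and are also among its targets. In the same comparison 5 of 12 receptors that induce chemokines rose and 2 fell (median 0.92), against the same 8.14% and 10.5%. Il1rap, the shared subunit of interleukin-1 receptors, ranged from 12.2 to 13.7 FPKM in Undifferentiated, 2.32 to 2.74 in Differentiated and 10.9 to 17.3 in Lysfree (log2 fold change 2.47, SE 0.14, adjusted p = 4.8e-12), whereas the interferon-gamma receptor chain Ifngr1 averaged 15.7, 46.0 and 10.5 (-2.06, SE 0.10, adjusted p = 2.9e-13). Tnfrsf1b (1.47, SE 0.10, adjusted p = 2.0e-10) and Il17ra (1.36, SE 0.11, adjusted p = 7.6e-10), receptors for tumour necrosis factor and interleukin-17, were also higher.

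Among interferon response factors, Irf7 averaged 10.3, 5.06 and 1.48 FPKM in Undifferentiated, Differentiated and Lysfree libraries and fell in Lysfree vs. Differentiated (log2 fold change -1.71, SE 0.16, adjusted p = 1.1e-08). Stat2 (-0.28, SE 0.10, adjusted p = 0.030) and Irf9 (0.43, SE 0.11, adjusted p = 0.0032) were not called there. The 4 factors that degrade cytokine and chemokine mRNAs split evenly in direction in that comparison (median log2 fold change -0.56). Zc3h12a (-1.82, SE 0.14, adjusted p = 4.5e-10) and Zfp36 (-1.79, SE 0.16, adjusted p = 1.2e-08) fell, which makes 2 called lower against 10.5% of all genes, while Zfp36l1 (0.91, adjusted p = 8.4e-07) and Zfp36l2 (0.67, adjusted p = 5.0e-06) were higher but short of 2-fold.

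Beside the ligands, 12 other secreted cytokines were examined, and of the 10 tested in Lysfree vs. Differentiated 3 rose and 2 fell (median log2 fold change 0.49), against 8.14% of all genes called higher and 10.5% lower. Csf1, the growth factor of macrophages, averaged 74.2 ± 1.55 FPKM in Undifferentiated, 9.43 ± 0.715 in Differentiated and 91.7 ± 9.54 in Lysfree libraries (SD, n = 3), and rose by 3.35 on the log2 scale from Differentiated to Lysfree (SE 0.11, adjusted p = 5.2e-16). Il6 averaged 0.245, 0.328 and 4.51 FPKM and rose by 3.83 (SE 0.23, adjusted p = 1.8e-11). Il1a, Il1b and Tnf, cytokines that induce many chemokines, were at the floor in every library.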

How the data were processed

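RNA was sequenced from 9 libraries of 3T3-L1 cells, 3 per group, and groups were taken from the sample titles. The authors aligned reads with HISAT2 2.0.5 to mm10 and counted them with featureCounts 1.5.0-p3, per the submitters' processing notes; the strand setting and annotation release are not given in the sources used here. The deposited table holds raw gene counts and, made from them by the authors, FPKM values. The deposited gene positions of all 43 members equalled those of GENCODE vM21. As the strand setting is not known, reads in bases shared with a gene on the opposite strand cannot be told apart. Among members above the floor this applies to Ccl2, Ccl6, Ccl25, Ccl27a, Cxcl10, Cxcl15 and Cxcl16.

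Counts were tested with edgeR 4.0.16 (R 4.3.3; TMM normalisation, glmQLFit and glmQLFTest) on the 6 libraries of each pair of groups, leaving out genes without a read in all 6, with Benjamini-Hochberg adjustment over all genes tested. Genes were called at an adjusted p below 0.05 and a change of at least 2-fold. SE is the log2 fold change divided by the square root of F. In Differentiated vs. Undifferentiated the estimated prior degrees of freedom were infinite, which makes p-values very small. The fit there used a spread shared between genes in place of each gene's own. The prior degrees of freedom were 28.0 in Lysfree vs. Undifferentiated and 15.9 in Lysfree vs. Differentiated, so p-values cannot be compared between comparisons. FPKM gave levels only. On counts simulated for the 3 comparisons, with 200 genes changed 4-fold among 23001 to 23343, edgeR recovered 200 in each, with 3, 1 and 1 false calls. The changed genes were drawn from well-counted genes only, with the same spread for every gene and no outlying library. The simulation therefore does not cover members with few counts or changes near 2-fold. DESeq2 1.42.0 and limma 3.58.1 on log2(FPKM + 1) or log2(FPKM + 0.1), other scalings, filters, a replicate block and leaving out each library were alternatives. Members above 3 counts were named, with full values for those of at least 1 FPKM in a group, and related genes where called with at least 1 FPKM in a group, at most 4 a list. The members and lists were chosen with earlier results of these data known. Replicate libraries differed by more than sampling noise, so none was counted as a duplicate. Some genes of the related lists are not reported here.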

Additional observations from a re-analysis of the deposited data

How the results depend on the processing

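Counts of members called were within 1.5 times under every alternative except these. With limma on log2(FPKM + 1), which compresses low values, 2 members were higher and 6 lower in Differentiated vs. Undifferentiated, 4 lower in Lysfree vs. Undifferentiated and 2 lower in Lysfree vs. Differentiated. Without a fold threshold 2 were higher in Lysfree vs. Undifferentiated, and with edgeR's expression filter 3 were lower in Lysfree vs. Differentiated (Ccl11 and Cxcl9 were not tested). Leaving out each library gave 3 to 4 higher and 9 to 10 lower in Differentiated vs. Undifferentiated, 1 higher and 6 to 7 lower in Lysfree vs. Undifferentiated, and 4 to 6 higher and 4 to 5 lower in Lysfree vs. Differentiated. The row count at the floor was 22 to 24, and 27 with a floor of 10 counts.

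The alternatives were run for chemokine ligands only, not for the related lists. Of their single-gene values under alternatives, 816 kept direction and call, 30 lost the call, 10 gained it and 3 changed sign. The sign changes were Ccl27b in Differentiated vs. Undifferentiated (-4.37 to 1.92 with a library left out, 1.92 without Undifferentiated replicate 2) and Cxcl12 in Lysfree vs. Differentiated (0.069 with library sizes alone, -0.034 to 0.019 with a library left out, 0.019 without Lysfree replicate 1), none of them called. Same-numbered libraries correlated between -0.19 and 0.19 in their deviations from group means. Libraries with different numbers were not compared in this way, so these values cannot tell whether the numbers pair the samples. With a replicate block 4 members were higher and 9 lower in Differentiated vs. Undifferentiated, where Cxcl15 was lost (adjusted p = 0.083), 1 and 7 in Lysfree vs. Undifferentiated, and 4 and 5 in Lysfree vs. Differentiated. Cxcl15 and Cxcl9, called with fewer than 10 counts in every library, each lost the call without at least 1 library, and differences between rows at the floor were not detectable at this depth.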
